A study of Mus musculus with 5 samples.

Results

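The genes described here encode enzymes that process the DNA lesions of antibody somatic hypermutation. They are the 7 genes Ung, Smug1, Apex1, Msh6, Exo1, Polh and Rev1, chosen by name from the 23234 genes of the deposited table, and 7 of the 7 were present. Expression was measured by RNA sequencing of B cells of the germinal centre light zone, which were sorted from the spleens of mice, in 2 libraries labelled Csk(f/f) and 3 labelled Csk(+/+), which the study describes as biological replicates. Csk is the kinase that holds Src family kinases in check, and the question, per the series title, concerns B cell receptor signalling in germinal centre selection. In both groups the donor B cells carried ERT2cre(KI/+), a Cre recombinase activated by tamoxifen, B1-8hi(KI/+), an immunoglobulin heavy chain knock-in that binds the hapten NP, and the CD45.1/2 donor marker. They were transferred into C57BL/6J hosts, which received NP-CGG in alum on day 0 and tamoxifen on days 8 and 9, and the NP-binding donor cells were sorted on day 11. Both groups therefore shared the Cre, the knock-in and the tamoxifen, and differed by the floxed Csk alleles. The labels do not give the floxed exons, the sex or age of the mice, or whether animals were pooled.

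Somatic hypermutation begins when activation-induced cytidine deaminase (AID) turns cytosine into uracil in immunoglobulin genes. A uracil can be removed by a uracil glycosylase and cut by an abasic-site endonuclease, or the mismatch can be bound by a complex containing MSH6 and resected by the exonuclease EXO1. Translesion polymerases then copy across or around the lesion with errors, and DNA polymerase eta and REV1 are the best known of these in B cells. Mutation is placed mainly in the dark zone of the germinal centre, where B cells divide, while the light zone is the site of selection.

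Csk transcript was measured at 453 and 476 FPKM (fragments scaled to transcript length and library size) in the libraries labelled Csk(f/f), against 378, 436 and 415 FPKM in the Csk(+/+) libraries. The label was thus not matched by a lower Csk value (log2 fold change 0.18, limma adjusted p = 0.439), and after the GC correction described further on it was -0.14 (limma adjusted p = 0.846). A value for the whole gene also counts any exon that recombination leaves in place, so it does not check the genotype. Depth, estimated from the smallest FPKM values in each library, was 23.7M and 9.54M fragments in the Csk(f/f) libraries and 16.0M, 19.6M and 12.0M fragments in the Csk(+/+) libraries. Among germinal centre B cell markers, 13 of 13 reached 1 FPKM in at least 2 libraries, with a summed level of 4742 to 4978 FPKM in the Csk(f/f) libraries and 3816 to 5000 in Csk(+/+). The general B cell genes Cd79a and Cd79b were the largest parts of that sum in every library. Bcl6, Fas, Rgs13, Gcet2 and Ms4a1 were lower in both Csk(f/f) libraries than in any Csk(+/+) library. S1pr2, Mef2b and Cd79a were higher in both, and the other markers of the list overlapped between the groups. Of all genes at 1 FPKM or more in at least 2 libraries, 24.5% were lower and 20.7% higher without overlap. The T cell receptor complex genes Cd3e and Cd3g were listed at 0 in all 5 libraries, and the T cell list summed to 7.67 to 10.3 FPKM in the Csk(f/f) libraries and 6.24 to 7.45 in Csk(+/+), nearly all of it from Lat. Markers that reached 1 FPKM in at least 2 libraries were 0 of 5 for natural killer cells, 0 of 5 for stroma and 0 of 6 for neutrophils. Macrophage markers (1 of 8 at that level) summed to 11.4 to 13.4 FPKM in the Csk(f/f) libraries and 2.73 to 8.69 in Csk(+/+), and erythroid markers (6 of 6) to 269 to 685 FPKM in Csk(f/f) and 238 to 1251 in Csk(+/+). Naive and follicular B cell markers (6 of 7) summed to 460 to 514 FPKM in Csk(f/f) and 381 to 431 in Csk(+/+), mostly from Fcer2a. Among them Ccr7 had 2.07 and 1.84 FPKM in the Csk(f/f) libraries, against 0.197, 0.372 and 0.262 FPKM in Csk(+/+), and Klf2 had 13.2 and 13.3 FPKM in Csk(f/f), against 6.69, 7.06 and 6.20 in Csk(+/+). Cr2, on the same list, was lower in both Csk(f/f) libraries (11.6 and 11.1 FPKM) than in Csk(+/+) (17.5, 22.4 and 14.3). The part of these cells in the results below was not tested.

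The 7 transcripts spanned a wide range of levels. Averaged over the 5 libraries, Apex1 had 50.8 FPKM, Ung 44.6, Msh6 37.7, Polh 24.1, Rev1 12.4, Exo1 5.79 and Smug1 1.74. Apex1 was above Ung in 4 of 5 libraries and Ung above Msh6 in 4 of 5, so the order of these 3 genes was not fixed beyond their spread. Each later step, from Msh6 to Polh, Rev1, Exo1 and Smug1, held in 5 of 5 libraries. Among the tested genes, Apex1 was expressed above 82.0% and Smug1 above 9.27%. The 2 uracil glycosylases therefore differed widely in transcript level. Smug1 rested on an estimated 56.1 to 175 fragments per library, against 968 to 2217 for Ung.

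The comparison of Csk(f/f) with Csk(+/+) used limma on log2(FPKM + 1) over the 10242 genes at 1 FPKM or more in at least 2 libraries, and 7 of the 7 genes entered it. None of the 7 passed an adjusted p of 0.05, where 8 of all tested genes (0.0781%) did. At an unadjusted p under 0.05 by limma, 2 of the 7 were lower in the Csk(f/f) libraries, where 13.6% of all tested genes were lower, and 0 of the 7 were higher, where 8.07% were. The 2 were Polh and Rev1, the 2 translesion polymerases. The groups of libraries did not overlap for 3 genes that were lower in Csk(f/f), Polh, Rev1 and Exo1, where 24.5% of all tested genes were, and for 1 that was higher, Apex1, where 20.7% were. The median log2 fold change of the 7 was -0.29, against -0.012 over all tested genes. In bulk RNA, fewer cells of a type and less RNA per cell cannot be told apart.

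**Figure D1:**
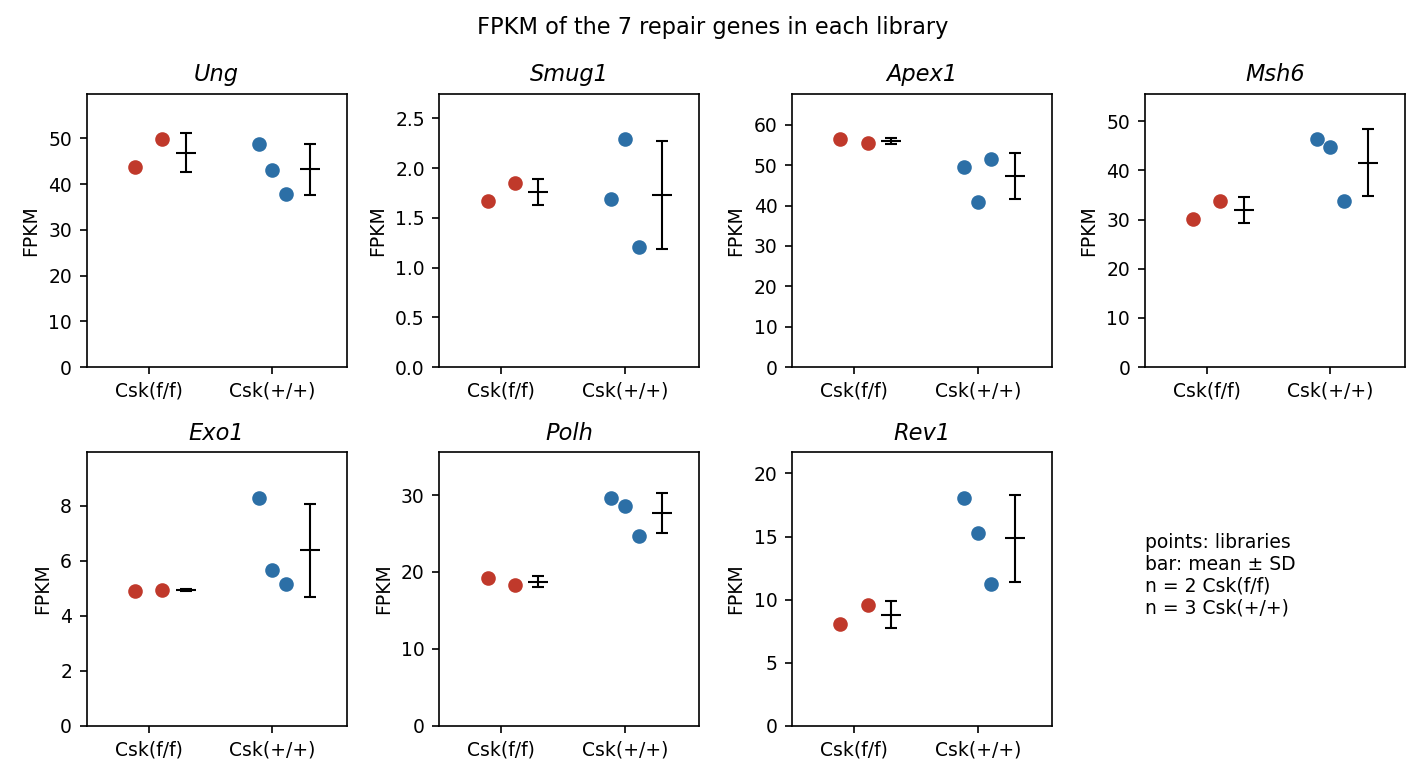
FPKM (vertical axes, each from 0) of the 7 genes in each library, with 2 Csk(f/f) libraries in red on the left of each panel and 3 Csk(+/+) libraries in blue on the right, and the mean ± SD beside them. Polh and Rev1 have both Csk(f/f) points below all Csk(+/+) points, while the points of Ung and Smug1 overlap.

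Polh encodes DNA polymerase eta, which makes most mutations at A:T pairs during hypermutation. It had 19.2 and 18.3 FPKM in the Csk(f/f) libraries, against 29.7, 28.6 and 24.7 FPKM in the Csk(+/+) libraries. Both Csk(f/f) values lay below the lowest Csk(+/+) value, and the means were 18.8 ± 0.674 FPKM (SD, n = 2) and 27.6 ± 2.64 (SD, n = 3). The log2 fold change was -0.53 ± 0.15 (SE), a fold of 0.692 with 95% limits of 0.546 and 0.875, and 10.3% of tested genes had a lower fold change. Its limma adjusted p was 0.155 (0.00722 unadjusted). A two-sided exact permutation test over the 10 splits gave p = 0.1, the smallest p these libraries allow.

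Rev1 encodes a deoxycytidyl transferase that inserts C opposite abasic sites and recruits other translesion polymerases. Its FPKM was 8.06 and 9.55 in the Csk(f/f) libraries, against 18.1, 15.3 and 11.3 in the Csk(+/+) libraries. The groups did not overlap, but Csk(+/+) replicate 3 lay nearest to the Csk(f/f) values. The means were 8.80 ± 1.05 FPKM (SD, n = 2) and 14.9 ± 3.44 (SD, n = 3), with a log2 fold change of -0.68 ± 0.22 (SE), a fold of 0.626 (95% limits 0.438 and 0.895) and a limma adjusted p of 0.177 (0.0167 unadjusted). This was the largest difference among the 7, and 4.97% of tested genes had a lower fold change. The exact permutation test gave p = 0.2.

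The calls of Polh and Rev1 turned on Csk(+/+) replicate 3. Without that library both passed by limma, Polh at a log2 fold change of -0.61 (adjusted p = 0.0471) and Rev1 at -0.85 (adjusted p = 0.0415), in a comparison where 2.79% of all genes tested passed as lower. With the GC correction, neither passed without that library (adjusted p = 0.144 and 0.110). Both also passed with array weights, where that library had a weight of 0.259 and 4.66% of all genes passed as lower. Neither passed with any other single library left out. At an unadjusted p under 0.05, only Polh was lower without Csk(f/f) replicate 1 or without Csk(+/+) replicate 1, and only Rev1 without Csk(f/f) replicate 2.

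Part of the Rev1 signal could not be assigned to 1 strand. In the GENCODE annotation of GRCm38, 27.3% of the exonic bases of Rev1 (1240 of 4544) lie opposite the last exon of Eif5b, a translation initiation factor gene on the other strand. The strand setting of the authors' counting is not given in the sources used here. Eif5b had 10.6 and 7.93 FPKM in the Csk(f/f) libraries, against 11.0, 11.4 and 19.5 FPKM in Csk(+/+). Both Csk(f/f) values lay below all Csk(+/+) values, as for Rev1. Its log2 fold change was -0.51 as deposited (limma adjusted p = 0.293) and -0.16 after the GC correction. Among the Csk(+/+) libraries, Eif5b was highest in replicate 3, where Rev1 was lowest. The part of Eif5b in the Rev1 values was not tested. Polh shares 0 exonic bases with another gene.

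The DNA upstream of the starts of Polh, Rev1 and Msh6 is shown because these 3 had the most negative fold changes. The stretches are from RefSeq on GRCm38.p6, 5′ to 3′ on the gene's strand, cut where an annotated exon begins, and capitals mark GGGCGG or CCAAT on either strand. They cover chr17:46202646-46202781 (minus strand) for Polh, chr1:38129802-38129916 (minus strand) for Rev1 and chr17:87974800-87975049 (plus strand) for Msh6.
Polh: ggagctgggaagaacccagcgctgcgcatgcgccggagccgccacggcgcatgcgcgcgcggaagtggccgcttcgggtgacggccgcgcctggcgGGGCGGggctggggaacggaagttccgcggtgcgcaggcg
Rev1: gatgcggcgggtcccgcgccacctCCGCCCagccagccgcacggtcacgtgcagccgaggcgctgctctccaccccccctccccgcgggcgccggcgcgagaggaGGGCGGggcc
Msh6: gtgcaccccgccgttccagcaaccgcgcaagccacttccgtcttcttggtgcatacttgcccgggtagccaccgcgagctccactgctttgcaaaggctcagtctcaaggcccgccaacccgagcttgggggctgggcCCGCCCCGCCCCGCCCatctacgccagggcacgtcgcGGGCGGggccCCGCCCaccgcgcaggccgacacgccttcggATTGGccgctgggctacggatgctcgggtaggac
Windows of 250 bases before the start were searched for 6 of the 7 genes (Ung, Smug1, Apex1, Msh6, Polh and Rev1), on both strands. The Sp1-type motif GGGCGG was found in 5 of the 6 windows, with Smug1 the exception, and in 32.7% of all 32851 windows of the table. In Msh6 it occurred 5 times, in Rev1 and Ung 2 times each, and in Polh and Apex1 1 time. Window GC content was 62.8% for Ung, 64.8% for Apex1, 70.8% for Msh6, 73.2% for Polh, 83.6% for Rev1 and 50.4% for Smug1. The median over all windows was 52.4%, so the share of 32.7% is not matched for GC content. CCAAT was found in the windows of Smug1, Apex1 and Msh6 and in 33.8% of all windows. The E2F-type motifs TTTGGCGC, TTTCCCGC and TTTCGCGC, present in 0.417%, 0.895% and 0.256% of all windows, and the cell cycle motif TTTGAA, present in 16.0%, were not among the letters of these 6 windows. Some of these motifs can overlap each other, as do the first 3 copies in Msh6, and a match is a description of the letters only.

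Msh6 encodes the subunit that recognises single-base mismatches such as the U:G pair. It had 30.1 and 33.8 FPKM in the Csk(f/f) libraries, against 46.4, 44.7 and 33.7 FPKM in the Csk(+/+) libraries. The groups overlapped, because Csk(+/+) replicate 3 lay among the Csk(f/f) values. The means were 32.0 ± 2.67 FPKM (SD, n = 2) and 41.6 ± 6.88 (SD, n = 3), with a log2 fold change of -0.36 ± 0.17 (SE) and a limma adjusted p of 0.263.

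Exo1 encodes the exonuclease that removes the strand around the mismatch and so exposes A:T pairs to error-prone filling. It had 4.90 and 4.94 FPKM in the Csk(f/f) libraries, against 8.29, 5.67 and 5.15 FPKM in the Csk(+/+) libraries. The groups did not overlap, but the gap to the lowest Csk(+/+) library was small beside the spread of that group (1.68 FPKM, SD, n = 3). The log2 fold change was -0.29 ± 0.23 (SE), with a 95% interval of -0.82 to 0.24 and a limma adjusted p of 0.457.

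Ung encodes the main uracil glycosylase of hypermutation and class switching. It had 43.8 and 49.8 FPKM in the Csk(f/f) libraries, against 48.8, 43.0 and 37.8 FPKM in the Csk(+/+) libraries. The groups overlapped, with means of 46.8 ± 4.26 FPKM (SD, n = 2) and 43.2 ± 5.48 (SD, n = 3). The log2 fold change was 0.12 ± 0.15 (SE), with 95% limits of the fold at 0.850 and 1.39, and the limma adjusted p was 0.654.

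Smug1, a second uracil glycosylase that can act in place of UNG, had 1.67 and 1.85 FPKM in the Csk(f/f) libraries, against 1.69, 2.29 and 1.21 FPKM in the Csk(+/+) libraries. Both Csk(f/f) values fell inside the Csk(+/+) range. The 95% limits of its fold were 0.712 and 1.48, and the limma adjusted p was 0.934.

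Apex1 encodes the main endonuclease that cuts at the abasic sites left by the glycosylases. It had 56.4 and 55.4 FPKM in the Csk(f/f) libraries, against 49.5, 40.9 and 51.6 FPKM in the Csk(+/+) libraries. Both Csk(f/f) values lay above all Csk(+/+) values, with means of 55.9 ± 0.747 FPKM (SD, n = 2) and 47.3 ± 5.67 (SD, n = 3), but the log2 fold change of 0.24 ± 0.14 (SE) had a limma adjusted p of 0.337. In the annotation 61.7% of its exonic bases (877 of 1422) also lie in an exon of Tmem55b (Pip4p1 in that annotation) on the other strand, so the 2 genes share signal unless reads were counted by strand. Tmem55b had 70.4 and 68.6 FPKM in the Csk(f/f) libraries, against 57.1, 53.3 and 54.1 FPKM in Csk(+/+) (limma adjusted p = 0.190). The related endonuclease gene Apex2, chosen after its values were seen, averaged 10.7 ± 0.766 FPKM (SD, n = 2) in the Csk(f/f) libraries and 8.29 ± 0.835 (SD, n = 3) in Csk(+/+), a log2 fold change of 0.33 as deposited and 0.46 after the GC correction (limma adjusted p = 0.297 and 0.458). Apex1 exceeded Apex2 by 4.94 to 5.57 times in the Csk(f/f) libraries and by 4.50 to 6.95 times in Csk(+/+).

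Fold changes in these libraries followed the GC content of the transcript, with a Spearman rho of 0.73 across 10119 genes, which are not independent replicates. The GC content of the longest protein-coding transcript was 46.6% for Exo1, 46.8% for Rev1, 47.7% for Polh, 48.9% for Msh6, 49.9% for Smug1, 51.3% for Apex1 and 57.4% for Ung. The 4 genes with negative fold changes were thus the 4 with the lowest GC content. After the GC trend was subtracted from each library, the log2 fold change was -0.38 for Polh (95% interval -0.66 to -0.11) and -0.48 for Rev1 (-0.87 to -0.08), and their limma adjusted p-values were 0.458 and 0.477. Both were again lower at an unadjusted p under 0.05, where 4.76% of all genes were, and 0 of the 7 passed the adjusted threshold, where 0.0692% of all genes did. With the correction Exo1 was at -0.083 and Msh6 at -0.28. Ung turned sign, to -0.16 (95% interval -0.49 to 0.16). The median log2 fold change of the 7 was then -0.16, against 0.0017 over all genes. The groups no longer overlapped for Msh6 and came to overlap for Exo1 and Apex1, so that 3 genes were lower without overlap, where 13.4% of all genes were, and 0 were higher without overlap, where 14.2% were.

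**Figure D2:**
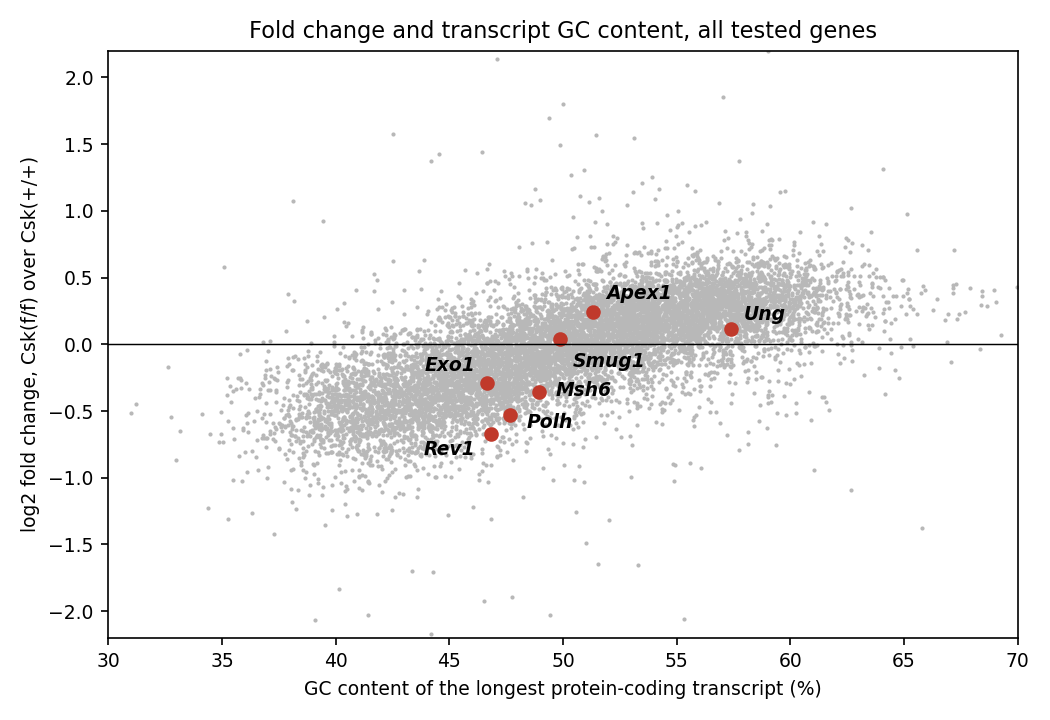
Log2 fold change of Csk(f/f) over Csk(+/+) on log2(FPKM + 1) (vertical axis) against the GC content of the longest protein-coding transcript in percent (horizontal axis) for 10119 tested genes in grey, of which 44 lie outside the axes, with the 7 repair genes in red. The cloud rises with GC content, and Rev1 and Polh, at -0.68 and -0.53, lie toward its lower edge for their GC content.

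**Figure D3:**
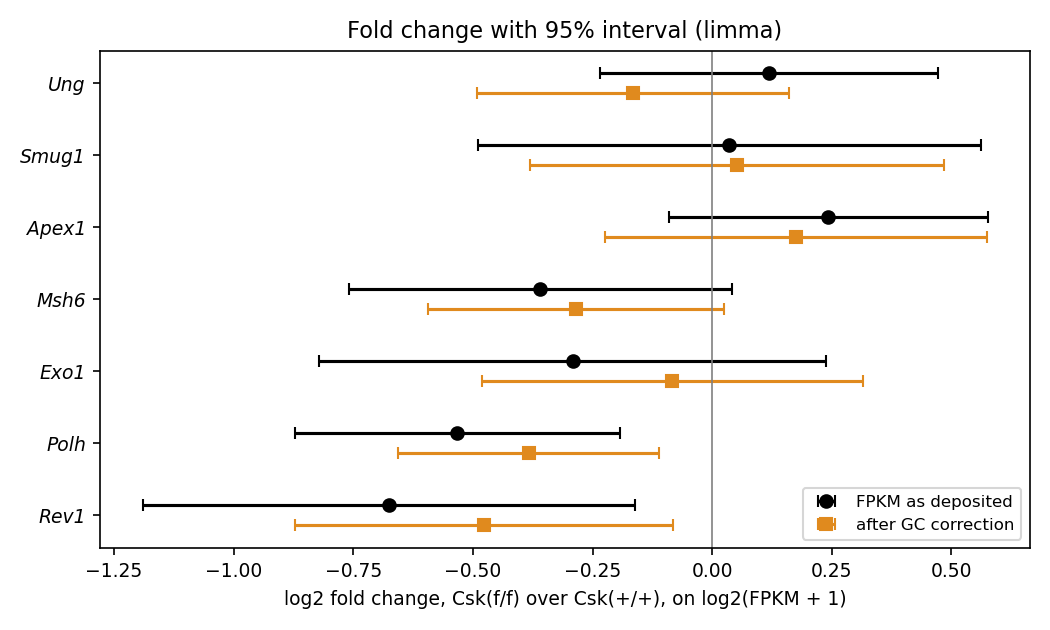
Log2 fold change of Csk(f/f) over Csk(+/+) (horizontal axis) for the 7 genes with 95% intervals from limma, for FPKM as deposited (black circles) and after the GC correction (orange squares). The intervals of Polh and Rev1 lie below 0 in both, and those of the other genes include 0.

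The balance within each step of the pathway was compared as a log2 ratio inside each library, the difference of the 2 log2(FPKM + 1) values. The log2 ratio of Ung to Smug1 was 4.07 and 4.15 in the Csk(f/f) libraries, against 4.21, 3.74 and 4.14 in Csk(+/+). The log2 ratio of Msh6 to Exo1 was 2.40 and 2.55 in the Csk(f/f) libraries, against 2.35, 2.78 and 2.50 in Csk(+/+). The log2 ratio of Polh to Rev1 was 1.16 and 0.87 in the Csk(f/f) libraries, against 0.68, 0.86 and 1.07 in Csk(+/+). The groups overlapped in all 3 ratios. The differences of 0.082, -0.067 and 0.14 had two-sided exact permutation p-values of 0.9, 0.9 and 0.4 (0.9 each adjusted over the 3 ratios), where the smallest p allowed is 0.1, so a shift within a step was not detectable with 5 libraries.

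Of the wider translesion synthesis list, 18 genes were tested, including Polh and Rev1. Their median log2 fold change was -0.52, with 13 negative, and 0 passed the adjusted threshold by limma. At an unadjusted p under 0.05, 10 were lower and 0 higher (8 and 0 of 16 without Polh and Rev1), where 13.6% and 8.07% of all tested genes were. After the GC correction the median was -0.11, and 4 were lower and 1 higher, where 4.76% and 4.16% of all genes were. The 4 were Polh and Rev1 themselves, Rad18 and Dtl, and the 1 was Ube2a. Pcna and Ccdc111, described next, were then not among the lower genes (limma unadjusted p = 0.188 for each). Rad18, the ubiquitin ligase that marks PCNA to admit translesion polymerases, had 4.42 ± 1.30 FPKM (SD, n = 2) in the Csk(f/f) libraries and 8.57 ± 1.65 (SD, n = 3) in Csk(+/+). Pcna, the sliding clamp itself, had 334 ± 15.9 FPKM in Csk(f/f) and 479 ± 37.1 in Csk(+/+) libraries, with a limma adjusted p of 0.155. Dtl, a substrate adaptor of a ubiquitin ligase that acts on chromatin-bound PCNA, had 9.02 ± 0.915 FPKM in Csk(f/f) and 15.4 ± 2.41 in Csk(+/+) libraries. Ccdc111, an older symbol of the primase-polymerase gene Primpol, had 4.58 ± 1.02 FPKM in Csk(f/f) and 7.42 ± 0.608 in Csk(+/+) libraries. Each of these 4 genes was lower in both Csk(f/f) libraries than in any Csk(+/+) library, where 24.5% of all tested genes were. They were named for the smallest unadjusted p of the list beside Polh and Rev1, so this is not separate support.

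The base excision list had 22 tested genes with a median log2 fold change of -0.025, of which 11 were negative, 3 lower and 1 higher at an unadjusted p under 0.05 by limma, near the 13.6% and 8.07% of all tested genes, and 0 past the adjusted threshold. Neil1, a glycosylase for oxidised bases, was the 1 that was higher, at 294 ± 16.6 FPKM (SD, n = 2) in the Csk(f/f) libraries and 215 ± 10.1 (SD, n = 3) in Csk(+/+) (limma adjusted p = 0.157, and a log2 fold change of 0.45 before and 0.22 after the GC correction). Mbd4, which removes T or U from mismatches at CpG sites, had 15.4 ± 0.961 FPKM in Csk(f/f) and 22.7 ± 1.64 in Csk(+/+) libraries. Parp2, a sensor of strand breaks, had 15.4 ± 1.43 FPKM in Csk(f/f) and 20.9 ± 2.16 in Csk(+/+), and the glycosylase gene Neil3 averaged 3.45 FPKM in Csk(f/f) and 5.37 in Csk(+/+). After the GC correction the list had a median of -0.16, with 0 lower and 1 higher at an unadjusted p under 0.05, where 4.76% and 4.16% of all genes were. The 1 higher gene was then Apex2, and Neil1 was no longer among the genes under that p.

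The mismatch repair list had 20 tested genes, a median of -0.20 and 14 negative, with 4 lower and 1 higher at an unadjusted p under 0.05, where 13.6% and 8.07% of all tested genes were, and 0 past the adjusted threshold by limma. Rfc1, the large subunit of the clamp loader, had 22.1 ± 6.09 FPKM (SD, n = 2) in the Csk(f/f) libraries and 39.1 ± 3.15 (SD, n = 3) in Csk(+/+), and Hmgb1, a DNA-bending protein, had 176 ± 0.190 FPKM in Csk(f/f) and 314 ± 41.1 in Csk(+/+). Pold1, the catalytic subunit of DNA polymerase delta, had 125 ± 9.61 FPKM in Csk(f/f) and 99.9 ± 9.14 in Csk(+/+) libraries, a log2 fold change of 0.32 as deposited and -0.0035 after the GC correction. With that correction the list median was -0.042, with 1 lower (Rfc1) and 0 higher, where 4.76% and 4.16% of all genes were.

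AID partners and targeting factors numbered 17, with a median of -0.21, 3 lower and 0 higher at an unadjusted p under 0.05, where 13.6% and 8.07% of all tested genes were, and 0 past the adjusted threshold by limma. After the GC correction the median was -0.066, with 2 lower (Dnaja1 and Exosc3) and 0 higher, where 4.76% and 4.16% of all genes were. Dnaja1, a co-chaperone that stabilises AID in the cytoplasm, had 14.4 ± 0.855 FPKM (SD, n = 2) in the Csk(f/f) libraries and 29.5 ± 3.56 (SD, n = 3) in Csk(+/+) (limma adjusted p = 0.128). Its log2 fold change was -0.98 as deposited and -0.53 after the GC correction. Hsp90aa1, the inducible chaperone HSP90 alpha, had 112 ± 36.4 FPKM in Csk(f/f) and 186 ± 49.8 in Csk(+/+) libraries. Exosc3, a subunit of the RNA exosome, had 54.1 ± 5.75 FPKM in Csk(f/f) and 74.6 ± 6.03 in Csk(+/+). Rpa3, a subunit of the single-strand binding complex, had 63.9 ± 0.436 FPKM in Csk(f/f) and 81.3 ± 14.2 in Csk(+/+) and did not pass at an unadjusted p of 0.05. The GC correction turned its sign, with a log2 fold change of -0.33 as deposited and 0.14 after it.

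The end joining and class switch list had 18 tested genes, a median of -0.21, and 4 lower and 0 higher at an unadjusted p under 0.05, where 13.6% and 8.07% of all tested genes were. After the GC correction the median was -0.063 and 0 were lower, where 4.76% of all genes were. Its 4 lower genes were Xrcc4 (mean 3.59 FPKM in Csk(f/f) and 5.75 in Csk(+/+) libraries), Rif1 (1.88 in Csk(f/f) and 3.74 in Csk(+/+)), Rad50 (3.91 in Csk(f/f) and 5.90 in Csk(+/+)) and Rnf168 (5.65 in Csk(f/f) and 8.19 in Csk(+/+)). Xrcc4 is a ligase IV cofactor, and Rif1 and Rnf168 act in the protection and marking of DNA breaks.

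Since several of these repair genes are also expressed with the cell cycle, the replication and mitosis lists are set beside them. Some genes are on several lists, so the counts and medians partly repeat each other. Pcna is on the translesion, mismatch repair and replication lists, and Lig1 on the base excision, mismatch repair and replication lists. Rpa1, Rpa2 and Rpa3 are on both the AID partner and mismatch repair lists. The 26 genes of DNA replication and S phase had a median of -0.079, with 9 lower and 1 higher at an unadjusted p under 0.05 by limma, where 13.6% and 8.07% of all tested genes were. After the GC correction the median was -0.15, with 1 lower (Mcm4) and 0 higher, where 4.76% and 4.16% of all genes were. Mcm4, a subunit of the replicative helicase, had 45.7 ± 3.28 FPKM (SD, n = 2) in the Csk(f/f) libraries and 78.1 ± 8.29 (SD, n = 3) in Csk(+/+). Prim1, the primase subunit, averaged 28.3 FPKM in Csk(f/f) and 42.7 in Csk(+/+), and Ccne2, a G1/S cyclin, 1.31 FPKM in Csk(f/f) and 3.08 in Csk(+/+). The 20 mitosis genes had a median of -0.54, with 20 negative and 14 lower at an unadjusted p under 0.05, where 13.6% of all tested genes were. After the correction the median was -0.44, with 20 negative and 13 lower, where 4.76% of all genes were. The mitotic kinesin genes Kif11 (mean 8.15 FPKM in Csk(f/f) and 17.1 in Csk(+/+)) and Kif23 (9.84 in Csk(f/f) and 20.1 in Csk(+/+)), the cytokinesis regulator gene Prc1 (11.0 in Csk(f/f) and 20.6 in Csk(+/+)) and the cyclin gene Ccna2 (42.1 in Csk(f/f) and 62.7 in Csk(+/+)) had the smallest p-values. None of these lists had a member past the adjusted threshold by limma.

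**Figure D4:**
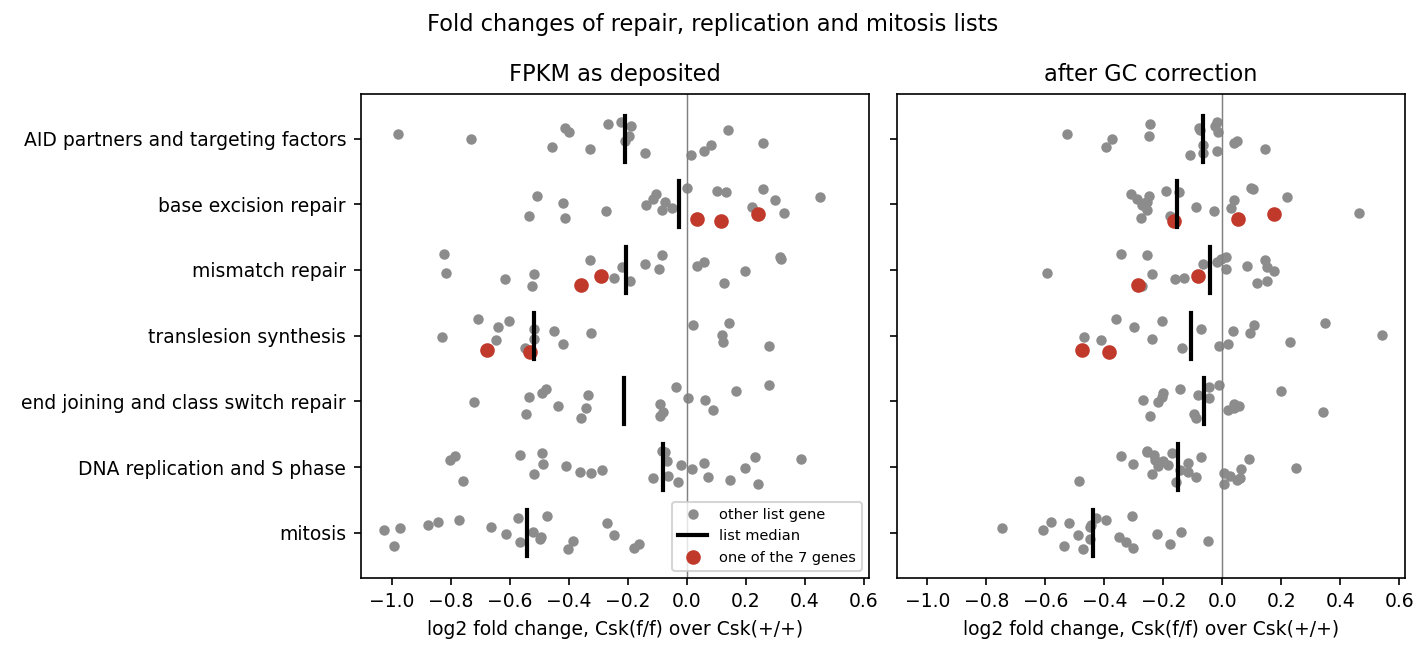
Log2 fold change of Csk(f/f) over Csk(+/+) (horizontal axes) of the tested genes of 7 lists, for FPKM as deposited (left) and after the GC correction (right), with list medians as black bars and the 7 repair genes in red. The translesion list has a median of -0.52 on the left and -0.11 on the right, and the mitosis list -0.54 and -0.44.

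The dark zone markers, 7 of 7 of them above 1 FPKM in at least 2 libraries, summed to 185 to 197 FPKM in the Csk(f/f) libraries and 224 to 229 in Csk(+/+), and Polh is itself on that list. Without Polh the other 6 summed to 167 to 178 FPKM in the Csk(f/f) libraries and 195 to 204 in Csk(+/+). Of those 6, Ccnb1, Aurka, Plk1 and Hmmr were lower in both Csk(f/f) libraries than in any Csk(+/+) library. Over all tested genes, 24.5% were lower in this way. Ccnb1, Aurka and Plk1 are also on the mitosis list, so the sum partly repeats that list. Their log2 fold changes were -0.39, -0.40 and -0.27 as deposited, and -0.047, -0.47 and -0.52 after the GC correction. The sums are of FPKM as deposited. Foxp1 overlapped between the groups, at 11.9 and 10.5 FPKM in Csk(f/f), against 11.9, 13.0 and 11.3 in Csk(+/+). The 8 light zone markers summed to 1063 to 1077 FPKM in the Csk(f/f) libraries and 942 to 986 in Csk(+/+), but they did not go one way. Cd83 had 515 and 487 FPKM in the Csk(f/f) libraries, against 379, 403 and 388 in Csk(+/+). Cd40 and Ebi3 were likewise higher in both Csk(f/f) libraries than in any Csk(+/+) library, and Nfkbia and Icosl overlapped between the groups. Cd86 had 63.4 and 56.9 FPKM in the Csk(f/f) libraries, against 80.5, 73.2 and 76.0 in Csk(+/+), and Slamf1 and Bcl2a1b were likewise lower in both Csk(f/f) libraries than in any Csk(+/+) library. These zone markers were named after their values were seen, and 20.7% of all tested genes were higher without overlap. Cxcr4, the receptor that holds cells in the dark zone, had 65.2 and 62.8 FPKM in the Csk(f/f) libraries, against 63.5, 61.5 and 58.6 in Csk(+/+). The part of the zone composition of the sorted cells in the values of Polh and Rev1 was not tested.

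Profiles over the 5 libraries were compared with 125 other tested genes of these lists, by the root mean square difference of log2(FPKM + 1) centred on each gene's mean. The values were as deposited, without the GC correction. The gene nearest to Polh was Mbd4 (0.076), and the gene nearest to both Rev1 (0.13) and Msh6 (0.095) was Slbp, which encodes the histone stem-loop binding protein. Slbp had 86.2 and 84.3 FPKM in the Csk(f/f) libraries, against 139, 131 and 94.3 FPKM in Csk(+/+). Its lowest Csk(+/+) library was replicate 3, as for every gene of the 7 except Apex1. Ung lay nearest to Mutyh (0.053), Apex1 to Mpg (0.052), Exo1 to Tyms (0.13) and Smug1 to Ccne1 (0.091). Among the 7 genes themselves, Polh and Msh6 were nearest to each other (0.13).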

How the data were processed

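Total RNA was extracted from the sorted cells in TRIzol, and NEBNext Ultra RNA reagents were used for library construction, per the labels. The deposited FPKM values come 1 column per library, and the submitters' processing notes name TopHat2 2.0.8, Cufflinks 2.1.1 and mm9; the annotation and any scaling between libraries are not given in the sources used here. Each column was mapped to its library by title, and 1 line repeating a header was left out.

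Csk(f/f) was compared with Csk(+/+) by limma 3.58.1 in R 4.3.3 on log2(FPKM + 1), with a trended prior, over the 10242 genes with at least 1 FPKM in at least 2 of 5 libraries, and Benjamini-Hochberg adjustment over them. The fit was tested on simulated data. Single ratios used exact permutation over 10 splits. The GC correction subtracted each library's lowess trend (span 0.3) against GC content of the longest protein-coding GENCODE transcript, known for 10119 genes (98.8%); GRCm38 coordinates are from RefSeq and GENCODE, not from the authors' build. Depth was estimated from the lowest FPKM among transcripts of 1500 nt or longer, and fragment numbers are estimates for the same transcripts that cover counting only.

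The 7 genes and all lists were chosen with earlier results of these data known. From each list the up to 4 genes with the smallest unadjusted p are named. Alternatives were pseudocounts of 0.1 and 5, a filter at 5 FPKM or none, quantile normalization and median-ratio rescaling, array weights, no trend, the replicate number as a block, GC correction and each library left out. The deaminase transcript itself was not analysed here.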

Additional observations from a re-analysis of the deposited data

How the results depend on the processing

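The signs of Polh, Rev1, Msh6 and Apex1 held under every alternative run, with log2 fold changes of -0.61 to -0.33, -0.85 to -0.37, -0.50 to -0.23 and 0.043 to 0.31. Polh had an unadjusted p under 0.05 in 19 of 21 alternatives and Rev1 in 16 of 21. Both passed with array weights (-0.59 and -0.80, limma adjusted p = 0.0370 and 0.0379). They also passed with a replicate block (-0.61 and -0.85, limma adjusted p = 0.0484 and 0.0488). In these settings 2 of the 7 thus passed, where 671 and 492 of all 10242 tested genes did. In each, 1 of the 7 (Apex1) was higher at an unadjusted p under 0.05, for which the share of all genes is not given here. The labels do not say that a replicate number marks a shared animal or day, and the block leaves Csk(+/+) replicate 3 out of the difference. Deviations of same-numbered libraries from their group means had correlations of -0.13 and 0.11. With 2 Csk(f/f) libraries those deviations mirror each other, so these values cannot tell whether the numbers mark pairs. The replicate block with GC correction ended those calls, with 1 higher, Ung at -0.20 and Smug1 at -0.030. Smug1 was at -0.081 with array weights and -0.11 with the replicate block, and Ung at -0.16 with the GC correction. Smug1 has no value at the 5 FPKM filter.

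Leaving out each library in turn gave -0.61 to -0.48 for Polh, -0.85 to -0.53 for Rev1 and -0.11 to 0.18 for Smug1. With a Csk(+/+) library left out, 0 to 2 of the 7 passed the adjusted threshold. Over all genes 9, 10 and 411 passed without Csk(+/+) replicates 1, 2 and 3. In these fits 1 to 3 of the 7 were lower and 0 to 1 higher at an unadjusted p under 0.05. The share of all genes at that p is not given here. With the GC correction as well, Ung was at -0.10, -0.23, -0.074, -0.22 and -0.20, Exo1 at 0.038 without Csk(+/+) replicate 1, and Smug1 at -0.031 without Csk(+/+) replicate 3. With 1 Csk(f/f) library left, that library is assumed to vary like the others. Over all genes 5 to 411 passed with a library left out, 44 without Csk(+/+) replicate 3 and with the GC correction, 4 without a filter, 671 with array weights, 492 with the replicate block and 98 with the block and GC correction, against 8.

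Left-out libraries put the list medians at -0.25 to -0.17 for AID partners, -0.077 to 0.024 for base excision, -0.26 to -0.15 for mismatch repair, -0.57 to -0.36 for translesion synthesis, -0.27 to -0.20 for end joining, -0.13 to -0.063 for replication and -0.62 to -0.42 for mitosis. The GC correction gave -0.066, -0.16, -0.042, -0.11, -0.063 and -0.15 for the first 6. Quantile normalization gave 0.061 for base excision, -0.39 for translesion synthesis and -0.15 for end joining. With a library left out, the differences in log2 ratio ran from -0.063 to 0.17 for Ung to Smug1 (-0.22 with GC correction), -0.16 to 0.051 for Msh6 to Exo1 (-0.20 with GC correction) and -0.0015 to 0.29 for Polh to Rev1. The cause of these changes was not tested.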
